A study of Mus musculus with 12 samples.

Results

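Cytosolic ribosomal protein genes encode the proteins that, together with ribosomal RNA, build the small (40S) and the large (60S) subunit of the ribosome that translates nuclear-encoded mRNAs. They were taken here as every protein-coding mouse gene whose symbol starts with Rps or Rpl followed by a number and at most a short paralog suffix, together with *Rplp0*, *Rplp1*, *Rplp2* and *Rpsa*. This rule used names only and no measured value. It gave 81 genes of the 35580 genes in the summed tables, 31 of the small and 50 of the large subunit. A further 5 genes with matching symbols (*Rps4l*, *Rpl6l*, *Rpl32l*, *Rps3a2* and *Rps3a3*) are annotated as pseudogenes and were not members.

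Poly(A) RNA was sequenced from R1 mouse embryonic stem cells (ESCs), a line derived from blastocysts, and from a CIDEA knockout (KO) made from that line by deleting the whole *Cidea* locus with CRISPR-Cas9. CIDEA is a lipid droplet protein that promotes droplet fusion. The KO libraries came from clone 19.7 alone, so effects of the gene and of the clone cannot be told apart. At 0 h both genotypes were ESCs on gelatine with LIF and 10% FBS. At 24 h and 48 h they had been moved to growth factor-reduced Matrigel without LIF and with 15% FBS, in which ESCs form spheroids. Time, matrix, LIF and serum changed together and cannot be told apart. Each of the 6 groups (WT and KO at 0 h, 24 h and 48 h) had 2 libraries, 12 in all.

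Depth was 29 to 38.5 M estimated counts per library. *Cidea* had 20 to 117 counts in the 6 WT libraries and 0 in all 6 KO libraries, which allows up to 3 counts in each. All 10 pluripotency markers examined, *Pou5f1*, *Sox2* and *Nanog* among them, exceeded 10 TPM in every library (TPM is kallisto's abundance corrected for transcript length and scaled to the same total in each library). The summed markers of fibroblasts (7 genes) lay between 6.89 and 24.8 TPM and those of primitive endoderm (8 genes) between 7.38 and 12 TPM. Those of trophectoderm (7 genes) lay between 27.4 and 39.9 TPM and those of mesoderm (6 genes) between 1.52 and 5.48 TPM. The pluripotency markers summed to 4229 to 6761 TPM. Replicate 1 of KO 24 h had 15577 detected genes, against 17634 to 19825 in the other libraries. The main changes in the calls on members without it are given below.

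Ribosomal proteins are needed in nearly equal copy number, because each ribosome holds a single copy of most of them. Their mRNAs are among the most abundant of proliferating cells. Many begin with a 5′ terminal oligopyrimidine (TOP) tract, a C followed by a run of pyrimidines, through which mTORC1 and LARP1 control their translation. A few members have paralogs whose expression is tissue-restricted: *Rpl39l* and *Rpl10l* are best known from male germ cells and *Rpl3l* from striated muscle. Ribosomal protein genes have also left many processed pseudogenes, copies of the spliced mRNA, in mammalian genomes.

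The coding sequences of *Rpl39* and *Rpl39l* are shown because the housekeeping gene and its restricted paralog differ at enough bases for reads to be told apart. *Rpl39* lies at chrX:37082520-37085402 on the minus strand and *Rpl39l* at chr16:10170226-10174911 on the plus strand (GRCm38). Capitals mark the 23 of 156 bases at which the sequences differ (85.3% identity), 16 of them at the last base of a codon.
Rpl39: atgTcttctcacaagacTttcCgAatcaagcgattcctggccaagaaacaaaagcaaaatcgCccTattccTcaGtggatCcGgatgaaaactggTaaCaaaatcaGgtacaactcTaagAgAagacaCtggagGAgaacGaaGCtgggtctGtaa
Rpl39l: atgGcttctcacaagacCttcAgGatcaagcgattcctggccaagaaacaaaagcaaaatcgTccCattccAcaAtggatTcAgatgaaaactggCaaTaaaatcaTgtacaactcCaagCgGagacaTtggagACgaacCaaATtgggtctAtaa

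Start regions of 5 members are shown as examples of how annotated starts lie to nearby pyrimidine runs: *Rpl19*, *Rpl13a* and *Rpl18*, picked from the members with long runs, and the restricted *Rpl39l* and *Rpl10l*. Each window holds the 30 bases before the RefSeq start site and the first 20 transcribed bases (GRCm38.p6, read 5′ to 3′ along the gene's strand), with the pyrimidine run nearest the start in capitals. The windows lie at chr11:98026894-98026943 (plus strand, *Rpl19*), chr7:45128726-45128775 (minus, *Rpl13a*), chr7:45718041-45718090 (plus, *Rpl18*), chr16:10170198-10170247 (plus, *Rpl39l*) and chr12:66284382-66284431 (minus, *Rpl10l*).
Rpl19: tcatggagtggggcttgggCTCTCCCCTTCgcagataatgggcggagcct
Rpl13a: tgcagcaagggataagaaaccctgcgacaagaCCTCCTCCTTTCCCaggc
Rpl18: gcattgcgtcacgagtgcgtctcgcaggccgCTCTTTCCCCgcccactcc
Rpl39l: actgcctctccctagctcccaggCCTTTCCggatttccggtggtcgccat
Rpl10l: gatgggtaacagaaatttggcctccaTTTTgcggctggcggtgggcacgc
The runs were 11, 14 and 10 bases long in *Rpl19*, *Rpl13a* and *Rpl18*, 7 in *Rpl39l* and 4 in *Rpl10l*. Over the 61 members with a RefSeq start the median run was 5, so these examples do not stand for broadly expressed against restricted members. None of the 5 has a C at the annotated start followed by at least 4 pyrimidines: the runs of *Rpl19*, *Rpl39l* and *Rpl10l* end just before the first transcribed base and those of *Rpl13a* and *Rpl18* begin after it, so the marked stretches are not TOP tracts of these annotated mRNAs.

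RefSeq start regions (250 bases before and 50 after the start) were found for 61 of the 81 members. A C at the annotated start followed by at least 4 pyrimidines stood in 12 of them (19.7%), against 2.48% of the 32472 regions of other genes and 2.25% of those of the 12365 other genes that passed the count filter. A run of at least 8 pyrimidines touching the 11 bases around the start was found in 19 (31.1%) against 9.63% and 9.76%. Of short motifs searched on both strands of the 300 bases, CCGGAAG, the core that ETS factors bind, was present in 23 of 61 (37.7%) against 8.85% and 15.6%, and ATGGCGG, a core of YY1 sites, in 9 (14.8%) against 4.05% and 7.12%. CACGTG, the E-box bound by MYC, was at 8.2% against 7.16% and 9.59%, and TATAAA at 8.2% against 13.6% and 8.35%. A match is a description of these letters and not of a site in use. Annotated starts limit these shares: in 20 of the 61 the RefSeq start lay within 5 bases of the start of the member's main GENCODE transcript.

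As a class the members were highly expressed. Mean TPM over the 12 libraries had a median of 1934 across the 81 members, against 8.58 across the 17424 genes tested, and 57 members exceeded 1000 TPM. Among the highest were *Rpl23a* (5906 TPM), *Rplp1* (5279), *Rps24* (4865) and *Rpl26* (4636). *Rplp1* encodes an acidic protein of the ribosomal stalk, which recruits translation factors. The 5 lowest were *Rpl3l* (2.14 TPM), *Rpl10l* (40.1), *Rpl39l* (72.0), *Rps13* (91.6) and *Rpl5* (114). The first 3 of these are the restricted paralogs, whereas *Rps13* and *Rpl5* encode core proteins of every ribosome.

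Low values of core members were accompanied by high values of near-identical gene copies. A copy was counted as a look-alike of a member where its transcript matched at least 80% of the member's coding sequence at 95% identity or more; 555 non-member genes met this for 76 members. Kallisto shares reads among transcripts they fit equally well, and these look-alikes held 5.01% to 6.20% of the TPM of a library, beside 15.0% to 17.0% in the members. *Rps13* itself received 2.51% to 8.13% of the TPM of its family (itself and its look-alikes), while the pseudogene *Rps13-ps1*, 99.6% identical, received a mean of 1937 TPM. *Rps12* (169 TPM) stood beside *Rps12-ps3* (4546 TPM, 100% identical), *Rpl12* (121 TPM) beside *Gm10275* (3270 TPM) and *Rpl5* beside *Gm15500* (2238 TPM), a copy 100% identical over the aligned coding sequence. *Rplp0*, the scaffold of the stalk and a common reference gene, held 21.1% to 25.8% of its family's TPM.

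In 21 members less than 50% of the family's TPM was on the member and in 51 at least 90% was. With look-alikes added, the levels of the 78 members other than *Rpl3l*, *Rpl10l* and *Rpl39l* drew together: the ratio of the highest to the lowest mean TPM was 64.5 for the genes alone and 7.28 for the families, and the SD on the log2 scale was 1.40 and 0.59. Families had a median of 2525 TPM and reached 5932 TPM (*Rpl23a*). The 3 restricted paralogs remained at 2.14, 40.1 and 72.0 TPM. Single-gene values of the 21 members are therefore values of the part of the reads that kallisto gave to that locus.

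**Figure D1:**
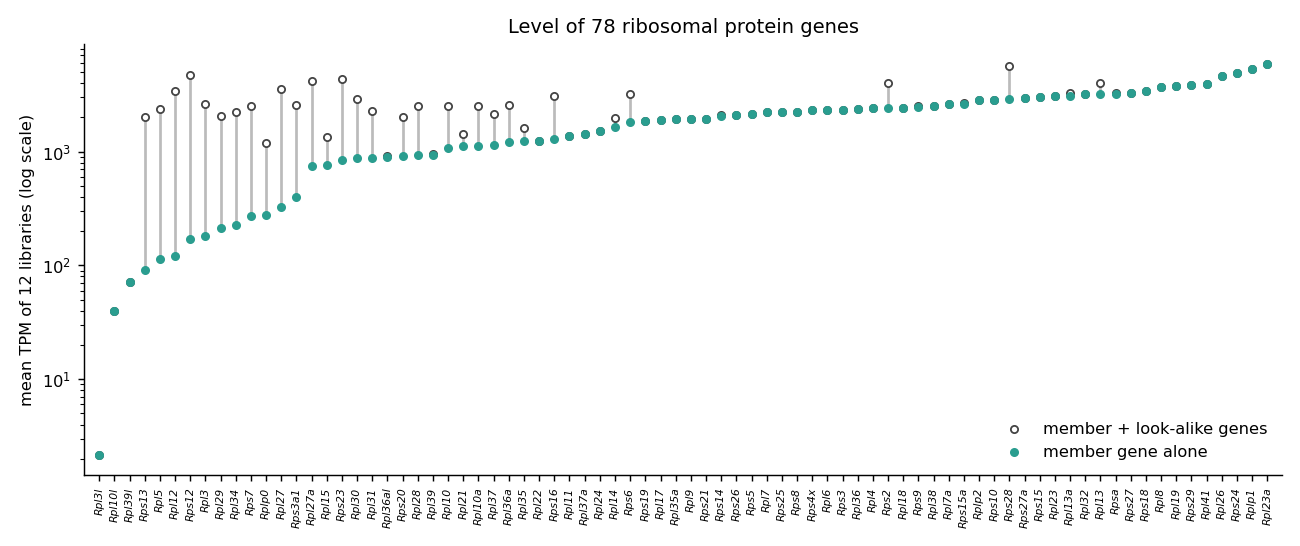
Mean TPM of the 12 libraries on a log axis for 78 of the members, ordered by the level of the gene alone (filled points), with the sum of the gene and its look-alikes (open points) joined by a grey line. The families of *Rps13*, *Rpl5*, *Rpl12* and *Rps12* lie near those of the other core members, whereas *Rpl3l*, *Rpl10l* and *Rpl39l* stay low at 2.14, 40.1 and 72.0 TPM.

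The total given to the members was compared first, as the plainest measure of how much of the mRNA pool codes for ribosomal proteins. In WT the members took 6.15% and 6.08% of all counts at 0 h, 5.90% and 5.74% at 24 h and 5.42% and 5.62% at 48 h, so that the libraries of the 3 times did not overlap. In KO they took 5.46% and 5.54% at 0 h, 5.57% and 5.13% at 24 h and 5.46% and 5.78% at 48 h, with all 3 times overlapping. Both KO libraries were below both WT libraries at 0 h and at 24 h, and the genotypes overlapped at 48 h. The difference KO minus WT, averaged over the times, was -0.33 percentage points (exact permutation test of genotype within time, two-sided p = 0.074; the smallest p this design allows is 0.0093). By time it was -0.61 at 0 h, -0.47 at 24 h and 0.10 at 48 h; within 1 time, groups of 2 cannot give a p below 0.333.

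Change per 24 h in the share of counts was -0.30 percentage points in WT and 0.06 in KO. Their mean, -0.118, did not pass (exact permutation test of time within genotype, p = 0.188), nor did the difference between the slopes, 0.35 (exact permutation test of genotype within time, p = 0.111). As shares of TPM, which correct for transcript length, the members held 16.9% and 17.0% in WT at 0 h, 16.7% and 16.4% at 24 h, and 15.0% and 15.5% at 48 h. In KO they held 15.4% and 15.9% at 0 h, 15.8% and 15.2% at 24 h, and 15.0% and 16.1% at 48 h. The mean slope over both genotypes was -0.445 percentage points of TPM per 24 h (exact permutation p = 0.044), made up of -0.84 in WT and -0.05 in KO. This call did not hold when any of 8 libraries was left out (exact permutation test without replicate 1 of KO 48 h, -0.338, p = 0.150), nor when mitochondrially encoded transcripts, which rose from 6.86% to 9.18% of TPM between WT 0 h and WT 48 h, were taken out of the total (-0.349, exact permutation p = 0.081), nor with replicate numbers as a block (p = 0.077). The difference between genotypes in TPM share was -0.68 percentage points (exact permutation p = 0.093), and with mitochondrially encoded transcripts out of the total it was -0.67 and passed (exact permutation p = 0.046). At 0 h, KO minus WT was -1.28 points of TPM for the members and 1.37 for mitochondrially encoded transcripts, whose part in the members' share was not otherwise tested.

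The ratio of small to large subunit genes passed neither test. The TPM of small subunit members divided by that of large subunit members lay between 0.688 and 0.738 in the 12 libraries, with means of 0.724 in WT and 0.730 in KO (difference 0.007, exact permutation p = 0.435; slope per 24 h -0.0073, p = 0.095). Look-alikes held a mean of 6.12% of TPM in WT 0 h and 5.39% in WT 48 h, and 5.60% in both KO 0 h and KO 48 h. In these bulk samples, fewer cells of a type and less RNA per cell cannot be told apart. The mean fragment length that kallisto's effective lengths imply was 175 to 195 bases over the libraries, 175 and 188 in WT 0 h and 183 and 195 in WT 48 h, and its part in the shares was not tested.

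**Figure D2:**
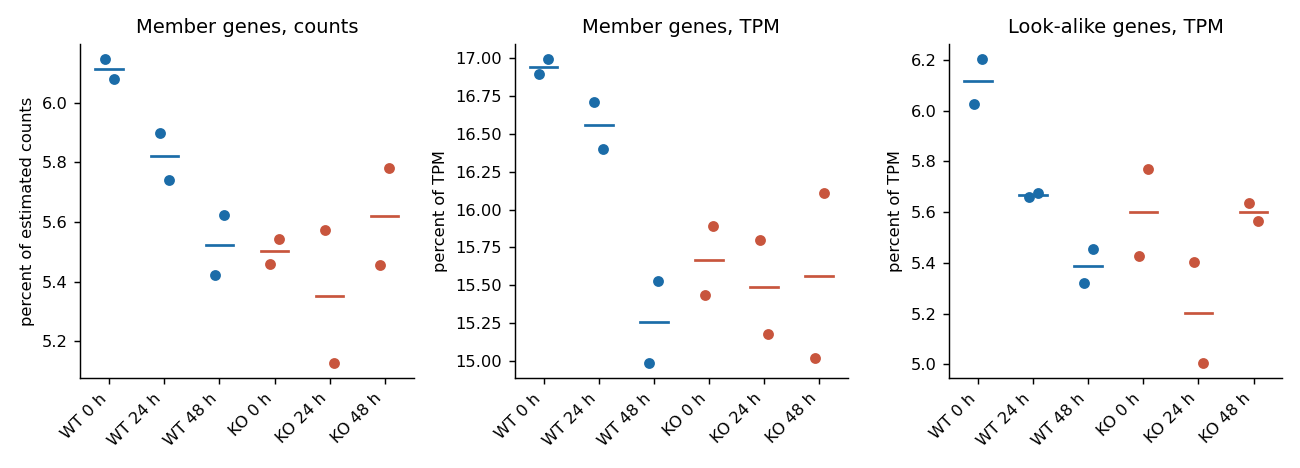
Share of each library, in percent, held by the 81 members in estimated counts (left) and in TPM (middle) and by the 555 look-alike genes in TPM (right), by genotype and time; each point is a library and each line the mean of 2. In the left panel WT fell in steps from 6.15% and 6.08% to 5.42% and 5.62%, and KO lay between 5.13% and 5.78% at all times.

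Gene by gene, the change from ESCs to 48 h spheroids in WT was the comparison in which most members were called. With edgeR's quasi-likelihood test (Benjamini-Hochberg adjusted p below 0.05 over all genes tested, as in every count below), 35 of 81 members were lower and 1 was higher at 48 h than at 0 h in WT; of all genes tested, 12.5% were called lower and 11.1% higher. The members' median log2 fold change was -0.19, against 0.02 for all genes, and 73 of 81 values were below 0. Of the called members, 13 were of the small and 23 of the large subunit. Leaving out WT 0 h replicate 1 or 2 gave medians of -0.18 and -0.21, with fewer members and fewer of all genes called. Using each library's average transcript lengths as offsets left 17 called members, where 14.4% of all genes were called. The sum of the pluripotency markers fell over the same interval, from a mean of 6289 TPM to 4279. Single markers went both ways: *Dppa5a*, *Pou5f1* and *Nanog* were among those that fell, whereas *Utf1* and *Lin28a* rose. The part of these markers in the counts of called members was not tested.

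*Rps20*, a small subunit protein of the head of the 40S particle, had the smallest p among the falls. Its TPM was 968 and 934 in WT 0 h, 1048 and 973 at 24 h, and 768 and 675 at 48 h. Both 48 h libraries were below all others of WT, and the log2 fold change was -0.47 ± 0.062 (SE; edgeR adjusted p = 1e-05). *Rps29*, which carries a zinc-binding site, had 4276 and 4006 TPM at 0 h and 3440 and 3273 at 48 h, without overlap (-0.38 ± 0.077, edgeR adjusted p = 0.001). *Rps27* fell from 3592 and 3731 TPM to 3113 and 2293, with replicate 2 at 48 h well below replicate 1 and both below 0 h (-0.52 ± 0.13, edgeR adjusted p = 0.017).

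The other large falls by the same comparison were those of *Rpl39l* (-0.66), *Rpl5* (-0.40), *Rpl39* (-0.39), *Rps3a1* (-0.37) and *Rpl30* (-0.35). *Rpl5*, which with *Rpl11* and 5S rRNA can bind MDM2, is one of the members with little of its family's TPM, and its family changed by -0.24 (edgeR adjusted p = 0.0039). *Rps3a1* was in the same position, with a family value of -0.28 (edgeR adjusted p = 0.00098). The only called rise was that of *Rpl27* (0.52 ± 0.12, edgeR adjusted p = 0.0028). It holds 6.04% to 11.5% of its family's TPM, and the family value was -0.14 (edgeR adjusted p = 0.124), so the sum over near-identical sequences showed no called rise.

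In KO the same span of time gave fewer calls. There 6 members were higher and 2 lower at 48 h than at 0 h; 12.1% of all genes tested were called higher and 12.8% lower. The median over members was 0.04, against 0.01 for all genes. The count was 14 with DESeq2 and 3 with length offsets, where 26.9% and 15.3% of all genes were called. Without KO 0 h replicate 1 or 2 the median was 0.02 or 0.06, and without KO 48 h replicate 1 it was 0.09. Each of these left 1 library in a group, and in each fewer members and fewer of all genes were called. *Rps20* again fell (TPM 1017 and 944 at 0 h, 764 and 841 at 48 h; -0.33 ± 0.062, edgeR adjusted p = 0.00046), as did *Rps2* (-0.21, edgeR adjusted p = 0.039). *Rps23*, which lies at the decoding centre, rose from 725 and 748 TPM to 900 and 905 (0.34 ± 0.066, edgeR adjusted p = 0.00067). Its family, of which it holds 18.4% to 20.5%, rose by 0.29 (edgeR adjusted p = 0.00085).

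*Rpl11* moved in opposite directions in the 2 genotypes. It had 1393 and 1513 TPM in WT 0 h and 1244 and 1286 in WT 48 h, but 1234 and 1255 in KO 0 h and 1445 and 1404 in KO 48 h. The libraries of the 2 times did not overlap in either genotype. The changes were -0.22 in WT (edgeR adjusted p = 0.016) and 0.22 in KO (edgeR adjusted p = 0.018). Their difference, 0.44 ± 0.092, was the member with the smallest p in the test of genotype by time and did not pass (edgeR adjusted p = 0.138). The remaining called rises in KO were *Rpl27* (0.59; family 0.11, edgeR adjusted p = 0.259), *Rpl12* (0.34; family 0.04, edgeR adjusted p = 0.740), *Rps25* (0.23) and *Rps21* (0.21).

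No member passed the test that asks whether the change from 0 h to 48 h differed between genotypes (edgeR; 0.0402% of all genes tested were called). Unadjusted p was below 0.05 for 43 of 81 members, against 1003 of the 17424 genes tested. Of the members' values 76 of 81 were above 0, and their median was 0.24, against -0.00 for all genes. These values share libraries and are not independent. In this test 0.413% of all genes were called by DESeq2. DESeq2 called 7 members here. With edgeR, calls on members appeared without KO 24 h replicate 1 or 2 (medians 0.23 and 0.24) and without WT 48 h replicate 1 (0.21). More of all genes were also called without either KO 24 h library. The same test for 24 h against 0 h called 0 members by edgeR and 0 by DESeq2, against 0.0115% of all genes by edgeR, with a median of 0.06. Unadjusted p was below 0.05 in edgeR for 4 members, against 1029 of the 17424 genes tested.

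The time course was then split into its intervals. From 0 h to 24 h, averaged over genotypes, 18 members fell and 3 rose, against 13.9% and 14.2% of all genes tested. Here limma on log2(TPM + 1) called 7 members lower and 4 higher, and 18.1% of all genes in either direction. From 24 h to 48 h, 9 fell and 7 rose, against 9.69% and 8.43%. Over both directions together, 25.9% and 19.8% of members were called, against 28.1% and 18.1% of all genes. In the first interval the called members mostly fell, whereas the calls over all genes were nearly even between falls and rises. In the later interval fewer members were called without WT 24 h replicate 1 (median -0.01) and more without WT 48 h replicate 1 (median 0.01). Fewer of all genes were called in both cases.

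By 24 h the largest falls were those of *Rpl5* (-0.68 ± 0.071, edgeR adjusted p = 4.9e-07) and *Rps12* (-0.63 ± 0.1, edgeR adjusted p = 0.00011). *Rpl5* had 126 and 145 TPM in WT 0 h and 139 and 130 in KO 0 h, and between 81 and 95.5 in the 4 libraries of 24 h, all lower. Summed with their look-alikes, these genes fell by 0.21 and 0.18 on the log2 scale, both still called (edgeR adjusted p = 0.0004 and 0.0037). *Rpl17* (-0.35 ± 0.051, edgeR adjusted p = 2.1e-05) and *Rps15a* (-0.30 ± 0.046, edgeR adjusted p = 4.1e-05) hold over 98% of their families, and their values with and without look-alikes were equal to 2 decimals. *Rps15a* had 2707 to 3237 TPM in the 4 libraries of 0 h and 2240 to 2610 in the 4 of 24 h, without overlap. *Rps24* (-0.26), *Rpl30* (-0.23), *Rps20* (-0.23) and *Rpl23* (-0.22) followed. The fall of *Rps20* at 24 h depended on how transcripts were weighed, since it became 0.03 with transcript lengths as offsets (edgeR adjusted p = 0.810).

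Higher at 24 h than at 0 h were *Rpl27* (0.51; family -0.06, edgeR adjusted p = 0.407), *Rpl10l* (0.40 ± 0.13, edgeR adjusted p = 0.025) and *Rps21* (0.16). From 24 h to 48 h *Rps12* (0.60), *Rps13* (0.51), *Rpl5* (0.42), *Rpl12* (0.32), *Rps24* (0.21), *Rps26* (0.20) and *Rpl17* (0.18) rose. For *Rps12*, which held 2.43% to 5.07% of its family's TPM, the family rose by only 0.22 (edgeR adjusted p = 0.0011). For *Rps13*, *Rpl12* and *Rpl5* the family sums did not pass (-0.00, 0.05 and 0.10, with edgeR adjusted p = 0.989, 0.577 and 0.105). Over the same interval *Rpl10l* (-0.67 ± 0.13, edgeR adjusted p = 0.00097) and *Rpl39l* (-0.52 ± 0.1, edgeR adjusted p = 0.0011) fell most, followed by *Rpl37a* (-0.28), *Rps2* (-0.21), *Rpl37* (-0.21), *Rpl39* (-0.19), *Rps20* (-0.17) and *Rps14* (-0.17). For *Rpl37* the family value was -0.02 (edgeR adjusted p = 0.830).

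Between genotypes, most calls on members were at 0 h. In these ESCs, 5 members were lower in KO and 0 higher, and 0.987% of all genes tested were called lower. Values of 79 of 81 members were below 0, with a median of -0.17 against 0.00 for all genes, and in 68 members (84.0%) both KO libraries were below both WT libraries in CPM, that is, counts scaled to library size, as in 20.6% of all genes. The called members were *Rpl27a* (-0.41 ± 0.087, edgeR adjusted p = 0.019), *Rps23* (-0.30 ± 0.066, edgeR adjusted p = 0.023), *Rpl13a* (-0.29 ± 0.064, edgeR adjusted p = 0.024), *Rpl22* (-0.30 ± 0.068, edgeR adjusted p = 0.027) and *Rps21* (-0.29 ± 0.069, edgeR adjusted p = 0.042).

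*Rpl13a*, which has a known role outside the ribosome in silencing inflammatory mRNAs, had 3583 and 3347 TPM in WT 0 h and 2884 and 2917 in KO 0 h. *Rpl22*, which also binds RNA outside the ribosome and is dispensable in most mouse tissues, had 1242 and 1327 against 1131 and 1075 TPM. *Rpl27a* had 976 and 885 against 704 and 725 TPM. It held 15.1% to 20.2% of its family's TPM, and the family changed by -0.30 (edgeR adjusted p = 0.012). In none of the 3 did the libraries of the genotypes overlap. The count of 5 rested on single libraries: it was 0 without WT 0 h replicate 1 or either KO 0 h library, 1 without WT 0 h replicate 2 or either WT 24 h library, and 12 or 13 without KO 24 h replicate 1 or 2. It was also 0 with transcript lengths as offsets and with limma on log2(TPM + 1), and 17 with DESeq2. Of all genes, 1.26% were called by edgeR, 0.344% with length offsets, 0.115% with limma and 2.15% with DESeq2. The share of all genes called moved in the same direction as the members when those libraries were left out. Summed fibroblast markers had a mean of 19.8 TPM in WT 0 h and 10.2 in KO 0 h, nearly all of it *Thy1* (23.3 and 13.7 TPM in WT, 13.1 and 6.27 in KO), while *Postn* was at 0 and *Col1a1* and *Col1a2* were below 1 TPM in these libraries; the part of *Thy1*-expressing cells in this difference was not tested.

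At 24 h 78 values were below 0, with a median of -0.13. Both KO libraries were below both WT libraries in 51 members (63.0%), against 21.4% of all genes. Unadjusted p was below 0.05 in edgeR for 26 members, against 2177 of the 17424 genes tested. After adjustment DESeq2 called 2 members (2.58% of all genes) and edgeR called 0 (1.46% of all genes). Without KO 24 h replicate 1 or 2, which leaves 1 library in the group, the median was -0.17 or -0.07. Calls on members appeared in both cases, but without replicate 2 many more of all genes were called too. Calls also appeared without either KO 48 h library, with a median of -0.13. At 48 h 64 values were above 0, with a median of 0.07. Both KO libraries were above both WT libraries in 23 members (28.4%), against 20.7% of all genes. Unadjusted p was below 0.05 in edgeR for 13 members, against 1349 of the 17424 genes tested. After adjustment DESeq2 called 1 member (1.33% of all genes) and edgeR called 0 (0.671% of all genes). Calls on members appeared without WT 48 h replicate 1 and without either KO 24 h library, with a median of 0.06 in each. The share of all genes called fell in the first case and rose in the others. Over all times together, *Rpl13a* (-0.18 ± 0.037, edgeR adjusted p = 0.0067) and *Rpl22* (-0.18 ± 0.039, edgeR adjusted p = 0.0091) were lower in KO, 2 of 81 members where 2.84% of all genes were called lower. DESeq2 called 19 members here, 18 of them lower (6.93% of all genes called in either direction). The filter of at least 10 counts in every library gave 15 (8.73% of all genes). Length offsets or limma gave 0 (1.69% and 1.08% of all genes). Leaving out 1 library, which leaves 1 in its group, gave medians of -0.10 to -0.06 in edgeR. Most members were called without KO 24 h replicate 2, where the share of all genes called was also largest. Fewer members were called without WT 24 h replicate 1, where fewer of all genes were called too.

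**Figure D3:**
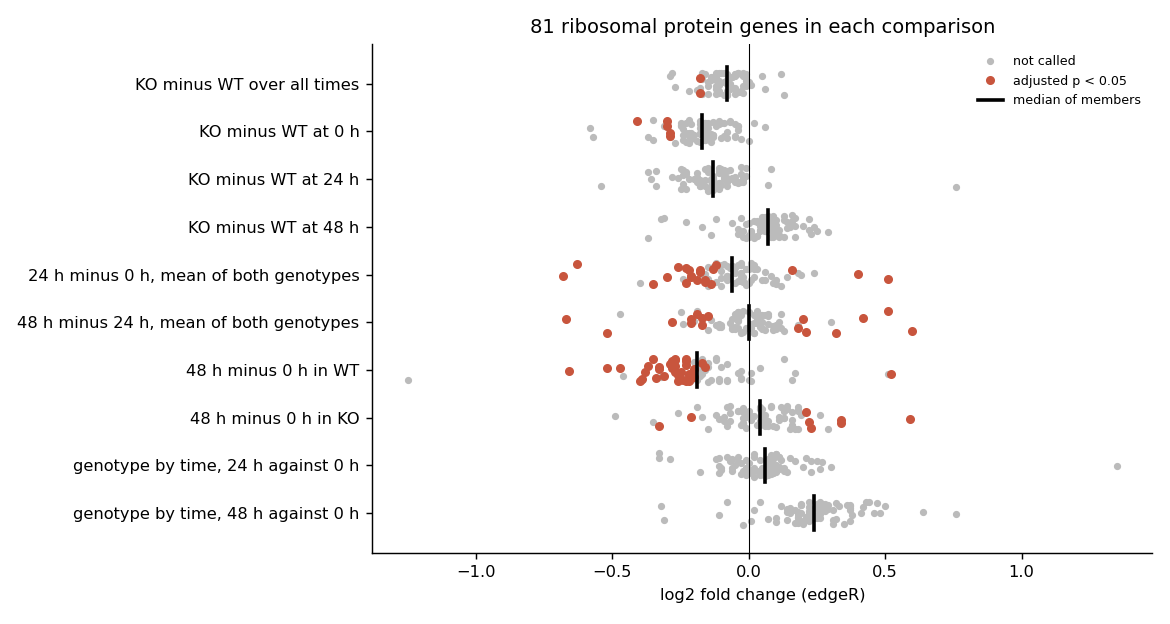
Log2 fold change (edgeR) of the 81 members in each of the 10 comparisons; red points passed an adjusted p of 0.05, grey points did not, and black bars are the members' medians. The bar lies at -0.19 for 48 h minus 0 h in WT and at 0.04 in KO, and moves from -0.17 at 0 h to 0.07 at 48 h for KO minus WT.

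Paralog pairs were compared as the ratio of their TPM within a library, a measure that the total given to ribosomal proteins does not move. All 8 pairs had at least 10 counts of each gene in every library and were tested by exact permutation, with p-values adjusted over the 8. None differed between genotypes (smallest adjusted p = 0.420 by exact permutation). For 3 the ratio changed with time: *Rpl22l1* to *Rpl22*, *Rps27l* to *Rps27* and *Rpl36al* to *Rpl36a*. *Rpl22l1*, *Rpl7l1* and *Rps27l* are ribosomal protein paralogs that the symbol rule leaves out, and *Rps4l* is one of the matching pseudogenes.

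*Rpl22l1* made up 26.8% and 25.9% of the TPM of *Rpl22l1* and *Rpl22* in WT 0 h, 23.3% and 24.8% at 24 h, and 21.5% and 14.1% at 48 h. In KO the shares were 28.0% and 29.2%, 25.9% and 26.3%, and 18.0% and 21.8%. They fell over time in both genotypes, and in each the 48 h libraries were below the others. The log2 ratio changed by -0.36 per 24 h (exact permutation p = 0.00025, the smallest this design allows; adjusted p = 0.002). *Rpl22l1* itself fell from 455 and 463 TPM to 348 and 242 in WT (log2 fold change -0.66 ± 0.13, edgeR adjusted p = 0.00082).

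The share of *Rps27l*, whose gene is a target of p53, rose from 11.2% and 11% of the pair in WT 0 h to 15.1% and 13.8% at 24 h and 15.7% and 19.8% at 48 h. In KO it rose from 11.2% and 11.7% to 14.5% and 16.5% and then 17.1% and 16.5%. In both genotypes all later libraries were above those of 0 h. The log2 ratio changed by 0.36 per 24 h (exact permutation p = 0.00049, adjusted p = 0.002). Both genes contributed, with *Rps27l* at 453 and 460 TPM in WT 0 h and 579 and 567 at 48 h while *Rps27* fell. *Rpl36al* changed less, from a mean of 40.1% to 44.3% of the pair in WT and from 40.8% to 44.8% in KO (0.12 per 24 h, exact permutation p = 0.0079, adjusted p = 0.021). The pair leaves out look-alikes, and *Rpl36a* held only 42% to 55.5% of its family's TPM, which raises these shares. The ratio to the whole family was not tested.

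*Rpl39l*, whose sequence is given above beside that of *Rpl39*, had 99.0 and 76.0 TPM in WT 0 h, 95.8 and 93.4 at 24 h, and 52.6 and 58.5 at 48 h. In KO it had 62.7 and 58.8 TPM at 0 h, 77.9 and 74.0 at 24 h, and 56.6 and 58.7 at 48 h. Of the 4 WT libraries of 0 h and 24 h, 3 were above every KO library and replicate 2 of WT 0 h was below KO 24 h replicate 1, and at 48 h the genotypes overlapped. Its share of the pair was 7.79% ± 1.6, 8.84% ± 0.57 and 6.38% ± 0.97 in WT and 6.18% ± 0.82, 7.10% ± 0.079 and 6.33% ± 0.36 in KO (SD, n = 2) at 0 h, 24 h and 48 h. KO minus WT in the log2 ratio was -0.23 (exact permutation p = 0.065, adjusted p = 0.420) and the slope was -0.07 per 24 h (exact permutation p = 0.451). At the gene level, *Rpl39l* passed the test from 24 h to 48 h and from 0 h to 48 h in WT, as given above.

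*Rpl10l*, on chr12:66283379-66284401, followed a like course: 41.9 and 41.3 TPM in WT 0 h, 66.7 and 55.2 at 24 h and 31.1 and 30.9 at 48 h, against 29.3 and 37.8, 37.6 and 48.1, and 25.4 and 35.9 in KO. Its WT libraries did not overlap between times, whereas those of KO did. It had 1 look-alike, listed at 0 in all libraries, and took 503 to 1322 counts. Its partner *Rpl10* held only 32.3% to 50.2% of its own family's TPM, which raises the share of *Rpl10l* in the pair. *Rpl3l* was low, at 0.737 to 4.93 TPM from 21 to 69 counts, and made up 0.573% to 2.27% of its pair with *Rpl3*, whose own value is low through its look-alikes. *Rpl7l1*, which is also a nucleolar factor, made up 4.78% and 5% of its pair in WT and KO at 0 h, 6.78% and 7.23% at 24 h and 5.33% and 5.08% at 48 h, while *Rps4l* held 16.5% to 25% of its pair with *Rps4x*.

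**Figure D4:**
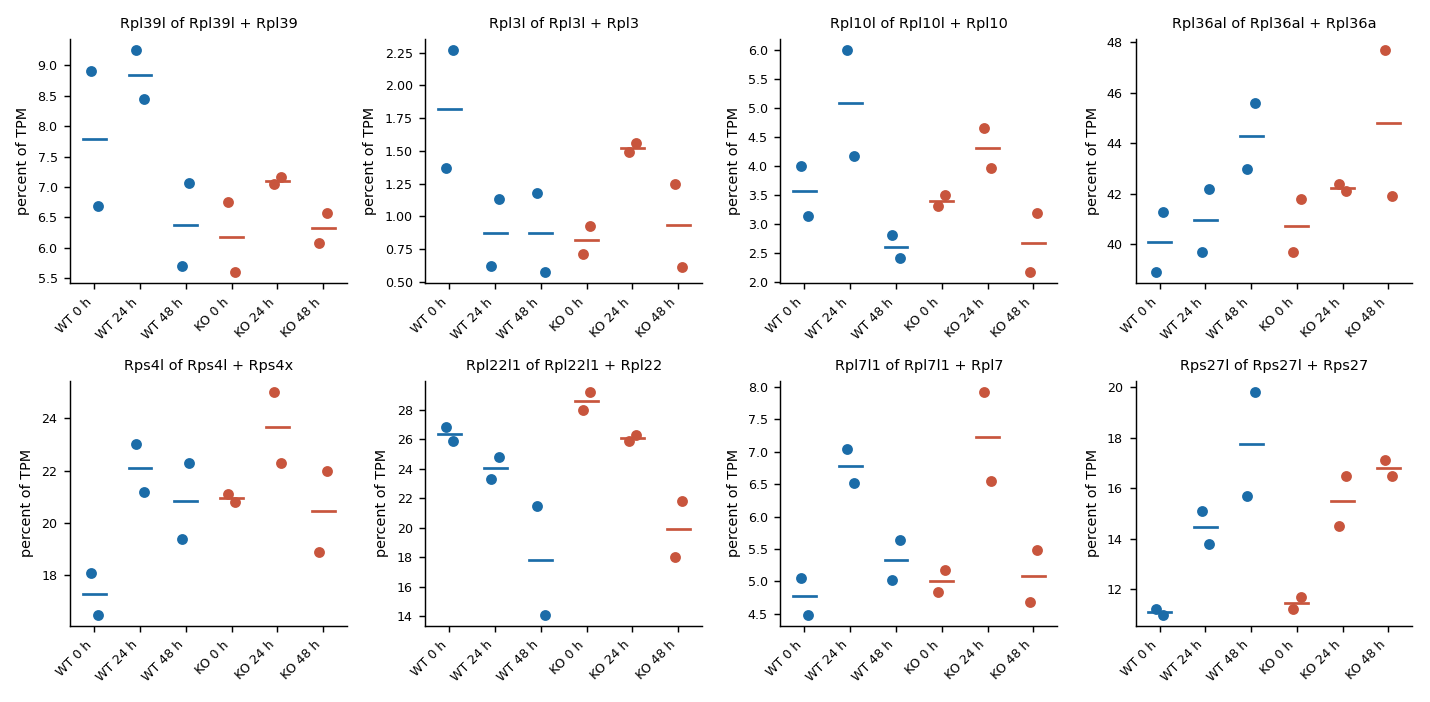
Percent of a pair's TPM held by the paralog in each library, by genotype and time, for the 8 pairs; each point is a library, each line the mean of 2, and the vertical axes differ and do not start at 0. *Rpl22l1* declined with time and *Rps27l* and *Rpl36al* rose in both genotypes, and *Rpl10l*, *Rpl39l* and *Rpl7l1* were highest at 24 h in both.

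Within genes, the transcripts that kallisto separates were followed as percentages of their gene's TPM, a measure chosen after the data were seen. Of 155 transcripts in 58 members (mean share of at least 2% and at most 98%, mean of at least 10 TPM), 21 changed with time, 14 of them upwards (exact permutation of time within genotype, adjusted over the 155), and 0 differed between genotypes (7 at unadjusted p below 0.05, smallest adjusted p = 0.718 by exact permutation). The clearest shift was in *Rps24*, a gene known for short alternative exons near its 3′ end. Its main transcript *Rps24-202* held 78.3% and 82.2% in WT 0 h, 76.5% and 75.9% at 24 h and 63.4% and 73.5% at 48 h; in KO it held 82.4% and 84.9%, 78.3% and 79.8%, and 74.3% and 73.2%. The change was -5.43 percentage points per 24 h (exact permutation p = 0.00025, adjusted p = 0.013), and the later libraries were below those of 0 h in both genotypes.

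*Rps24-205* rose from 2.45% and 2.45% of the gene in WT 0 h to 3.90% and 4.64% and then 6.23% and 5.82%, and from 2.84% and 2.62% in KO to 4.67% and 4.41% and then 6.31% and 7.04%. Its 3 times were separate in both genotypes (1.88 points per 24 h, exact permutation p = 0.00025, adjusted p = 0.013). *Rps24-210* was lower in all KO libraries of each time than in the WT libraries of that time (2.51% and 2.38% against 1.66% and 1.57% at 0 h; 3.19% and 4.28% against 2.95% and 2.68% at 48 h), a difference of -0.85 points that reached the smallest p the design allows (exact permutation p = 0.0093) and not the threshold after adjustment (0.718). *Rpl10-202* (3.38 points per 24 h) and the retained-intron transcript *Rpl10a-206* (1.67) rose and *Rpl15-202* fell by 3.74 (adjusted p = 0.013 for each by exact permutation). Over all members, retained-intron transcripts held 2.55% to 3.17% of the TPM with no called trend (slope 0.03 points per 24 h, exact permutation p = 0.741).

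**Figure D5:**
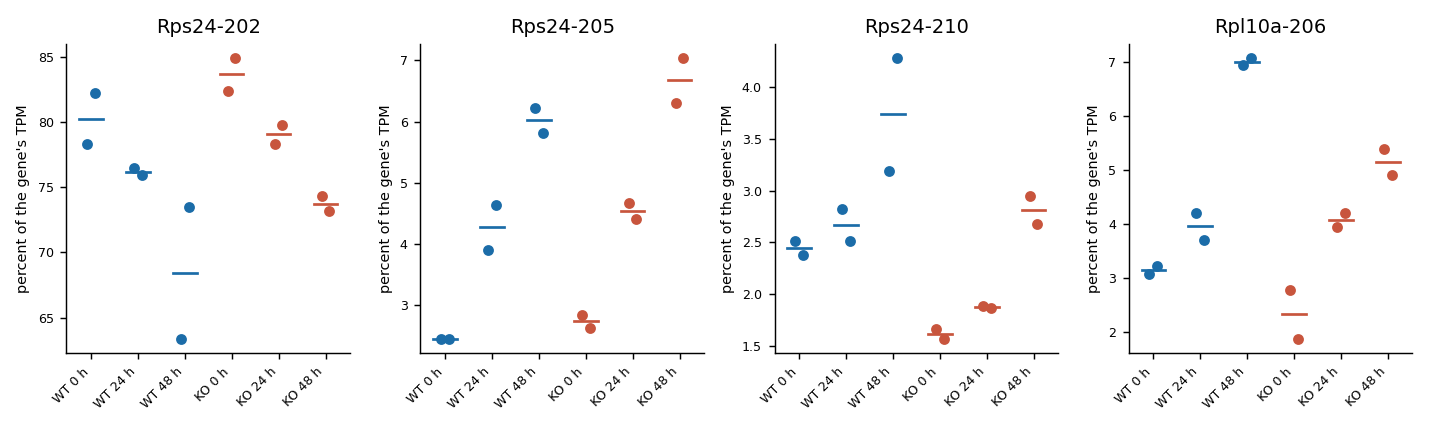
Percent of the gene's TPM held by 3 transcripts of *Rps24* and by *Rpl10a-206* in each library, by genotype and time; each point is a library, each line the mean of 2, and the vertical axes differ. *Rps24-202* declines while *Rps24-205* rises from 2.45% in both WT libraries of 0 h to 6.23% and 5.82% at 48 h.

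*Rpl19* (L19), used by the study as a reference gene for RT-qPCR, was read separately because a ratio to it carries its own changes. The 6 group means of *Rpl19* spanned 0.16 on the log2 CPM scale, the second smallest range of the 81 members, and 1.62% of all genes tested had a smaller one. *Rpl19* was called in none of the comparisons (3439 to 3956 TPM). Members as a class spanned a median of 0.32, against 0.41 for the 1489 other genes with at least 100 TPM and 0.92 for all tested. The members spanning most were *Rpl3l* (1.33), *Rps12* (0.97), *Rpl10l* (0.95), *Rps13* (0.84), *Rpl39l* (0.73) and *Rpl5* (0.70), which are restricted paralogs or genes with little of their family's TPM.

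Other members with well-known roles were read next. *Rps6*, the target of S6 kinases, had 1771 and 2062 TPM in WT 0 h and 1519 and 1671 in KO 0 h (-0.31, edgeR adjusted p = 0.164). *Rps19*, the gene most often mutated in Diamond-Blackfan anaemia, had 1937 and 1864 TPM in WT 0 h and 1805 and 1462 at 48 h (-0.16, edgeR adjusted p = 0.140). *Rpl38*, which is needed for translation of Hox mRNAs, had 2623 and 2689 TPM in WT 0 h against 2370 and 2302 in KO 0 h (-0.25, edgeR adjusted p = 0.152), without overlap. *Rpsa*, also known as the laminin receptor, had 3012 to 3465 TPM over the 12 libraries and was called in no comparison. Of the stalk genes, *Rplp2* fell from 2887 and 3437 TPM to 2446 and 3273 in WT (-0.24, edgeR adjusted p = 0.030), although the libraries overlapped on the TPM scale, and *Rplp0* (-0.22, edgeR adjusted p = 0.361) did not pass.

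Related gene lists are given beside the members, without a test between lists. Of 45 ribosome biogenesis factors, which process rRNA and assemble the subunits, 20 rose and 1 fell from 0 h to 48 h in WT and 31 rose and 1 fell in KO (46.7% and 71.1% called, against 23.6% and 25% of all genes), with medians of 0.18 and 0.34 against 0.02 and 0.01 for all genes, over the interval in which the members' medians were -0.19 and 0.04. *Gar1* (0.67), *Sbds* (0.65) and *Utp4* (0.61) rose most in WT, and *Nop16* (0.72), *Nle1* (0.69) and *Polr1d* (0.63) in KO. Between genotypes over all times 4 of the 45 were called (8.89%, against 5.03% of all genes), and *Rpf2*, which brings the 5S particle with RPL5 and RPL11 into the pre-60S subunit, had the largest difference. It had 89.4 to 114 TPM in the 6 WT libraries and 52.9 to 74.8 in the 6 KO libraries, without overlap (-0.75 ± 0.065, edgeR adjusted p = 3.6e-07).

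Among 20 genes that regulate ribosomal protein synthesis, *Eif4ebp2*, an mTORC1-controlled repressor of cap-dependent translation, was lower in KO over all times (90.3 to 124 TPM in WT and 55.2 to 83.2 in KO; -0.67 ± 0.044, edgeR adjusted p = 1.1e-08). *Atf4*, the effector of the integrated stress response, had 162 and 163 TPM in WT 0 h and 235 and 243 in KO 0 h, and was higher in KO over all times (0.37, edgeR adjusted p = 6.5e-05), as was *Mdm2* (0.30, edgeR adjusted p = 0.0003). From 0 h to 48 h *Mycn*, a MYC family activator of ribosome genes, rose in both genotypes (1.58 in WT and 1.94 in KO, edgeR adjusted p = 4.4e-11 and 1.8e-12), while *Atf4* fell (-1.25 and -1.47) and *Ddit3* fell (-1.20 and -1.14).

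Of 20 further genes whose mRNAs are known to carry a TOP tract, mostly translation factors, 5 rose and 5 fell in WT from 0 h to 48 h, with a median of -0.04, and 9 rose and 3 fell in KO, with a median of 0.12; 50% and 60% of the list were called, against 23.6% and 25% of all genes. *Vim*, which encodes an intermediate filament and no translation factor, changed most (-1.75 in WT, edgeR adjusted p = 7e-12). At 0 h *Vim* (-0.53), *Eif4b* (-0.26) and *Pabpc1* (-0.25) were lower in KO, and the list's median, -0.19, stood beside -0.17 for the members. Of the 78 mitochondrial ribosomal protein genes, 5 rose and 3 fell in WT and 14 rose and 0 fell in KO (10.3% and 17.9% called, below the 23.6% and 25% of all genes), with medians of -0.00 and 0.09, and their share of TPM was 0.654% to 0.770%. Of 6 ribosome components outside the symbol rule, *Rps27l* rose in both genotypes, *Rpl22l1* fell in both and *Rack1* fell in WT (-0.18, edgeR adjusted p = 0.028).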

How the data were processed

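Libraries were prepared with a stranded poly(A) kit and sequenced as paired reads, both by Genewiz. Adapters were removed by the authors in Trimmomatic 0.33, and abundance was then estimated per transcript in kallisto 0.43.1; the transcript set is not given in the sources used here, and the builds named are mm10 and GRCm38. The deposited tables hold estimated counts per transcript, neither whole nor scaled for depth, the TPM that kallisto derived from them by effective length, and that length. Of 115270 transcripts, 113580 (98.5%) were matched to GENCODE M21 by identifier, and counts and TPM were summed to 35580 genes.

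Gene counts were rounded to whole numbers and fitted in edgeR 4.0.16 (R 4.3.3; TMM, filterByExpr, robust quasi-likelihood test, all 12 libraries in 6 groups, Benjamini-Hochberg adjustment over 17424 genes, threshold 0.05); all 81 members passed the filter. DESeq2 1.42.0 and limma 3.58.1 on log2(TPM + 1) were alternatives. Shares and paralog ratios were tested by exact permutation of genotype within time or of time within genotype. Look-alikes were found with blastn 2.17.0. Scripts were tested on simulated data. The study describes the 2 libraries of a group as biological replicates from independent samples; p-values measure the spread between them. Replicates differed beyond counting noise (chi-square per degree of freedom 11 to 32.4 over genes), so none was counted as a duplicate.

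The members and lists were chosen with earlier results of these data known. Genes were named by rule: the 8 paralog pairs, members called between genotypes, the 8 largest called rises and falls over time, the highest and lowest levels, members with textbook roles, and the 3 largest called changes of other lists, given here for the main comparisons; transcripts were named after their values were seen. Sequences are GENCODE M21 (coding) and RefSeq (start regions, GRCm38.p6). Protein sequences were not used here. Values of some single genes are not reported here.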

Additional observations from a re-analysis of the deposited data

Results flagged for a closer look

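Look-alike genes, which lie outside the 81 members, held between 5.006% (KO 24 h replicate 2) and 6.203% (WT 0 h replicate 2) of the TPM of a library, above 0 in every library; they were looked at because reads of a member and of its copies can be assigned to either. Outlying libraries within a group were not tested, since Dixon's test needs more than 2 samples in a group. No member and no share differed between genotypes in its change over time by edgeR's test of that difference or by exact permutation.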

How the results depend on the processing

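All values here are counts of called members unless named otherwise. KO minus WT over all times (2 in the report) gave 4 with DESeq2 size factors, 19 with DESeq2, 13 with no filter on low counts, 15 with at least 10 counts in every library, 0 with length offsets, 0 with limma, 5 with the replicate block and 6 with look-alikes summed, an alternative chosen after seeing the data. KO minus WT at 0 h (5) gave 17 with DESeq2, 10 with no filter, 12 with the stricter filter, 0 with length offsets, 0 with limma and 8 with look-alikes summed. At 24 h (0) it gave 2, 1 and 1 with DESeq2, no filter and look-alikes summed, and at 48 h (0) 1 and 2 with DESeq2 and no filter. For 24 h minus 0 h (21), limma gave 11. For 48 h minus 24 h (16), length offsets gave 10. For 48 h minus 0 h in WT (36), length offsets gave 17 and limma 13. In KO (8), DESeq2 gave 14, the stricter filter 13, length offsets 3, limma 3 and only the groups compared 14. Genotype by time at 48 h (0) gave 7 with DESeq2 and 3 with no filter. The share of all genes called changed with these settings too. For KO minus WT over all times it was 5.03% in the report and 6.93% with DESeq2. It was 8.73% with the stricter filter, 1.69% with length offsets and 1.08% with limma. For 48 h minus 0 h in WT it was 23.6% in the report, 14.4% with length offsets and 15.1% with limma. The cause of these changes was not tested.

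Leaving out 1 library at a time gave ranges, in the same order, of 1 to 10, 0 to 13, 0 to 3, 0 to 3, 14 to 28, 10 to 25, 20 to 43, 4 to 12, 0 to 1 (genotype by time, 24 h) and 0 to 3. Shares of counts ranged from -0.4 to -0.25 percentage points (KO minus WT) and -0.168 to -0.094 per 24 h; shares of TPM from -0.86 to -0.5 and -0.57 to -0.338. Taking mitochondrially encoded transcripts out of the total gave -0.67 in TPM share for KO minus WT (exact permutation p = 0.046, now passing) and -0.349 per 24 h (p = 0.081, no longer passing).

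Same-numbered libraries deviated together with correlations of -0.049 to 0.051 over all genes and of -0.665 to 0.624, of either sign, over the 81 members, so the numbers were not taken to pair the samples. The replicate block gave -0.445 for the TPM share per 24 h (exact permutation p = 0.077, no longer passing) and 3 of 88 calls on single members were lost.

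Signs turned for *Rpl13a* at 24 h minus 0 h (0.05 with limma), *Rps20* there (0.03 with length offsets, 0.07 with limma), *Rpl27* there and in WT at 48 h (-0.06 and -0.14 with look-alikes summed) and *Rps13* at 48 h minus 24 h (-0.00 with look-alikes summed). Among pairs that had not passed, estimated counts in place of TPM turned *Rpl3l* (0.23, KO minus WT) and *Rpl7l1* (-0.01 per 24 h). Leaving out 1 library gave KO minus WT ranges that reach or cross 0 for *Rpl3l* (-0.23 to 0.12), *Rpl10l* (-0.19 to 0.00), *Rpl36al* (-0.01 to 0.10), *Rpl7l1* (-0.02 to 0.08) and *Rps27l* (-0.04 to 0.10), and for the slope of *Rpl7l1* (-0.01 to 0.11).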
